A study of Mus musculus with 10 samples.

Results

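Transcripts of 7 genes of the type I interferon response were followed in mouse hippocampus after ablation of the meningeal lymphatic vessels and in vehicle controls. The genes were Ifitm2, Ifitm3, Stat2, Irf9, Bst2, Ifih1 and Trim30a, taken by symbol from a deposited table of 27343 genes, and each had 1 row. All animals were wild-type C57BL/6J males, aged 2 months. Visudyne, a formulation of the photosensitizer verteporfin, was injected into the cisterna magna of 5 mice, and 5 controls were injected with vehicle. Non-thermal red light of 689 nm was then shone through the intact skull, and the treatment was given again after 2 weeks. Both groups were tested in a water maze for spatial memory 2 weeks after the last procedure, and the hippocampus was taken whole 3 days after it. No group in the labels received light without injection, or no surgery. Each library is labelled as a separate sample of its group. That each came from its own mouse is not stated in the labels, so the p-values measure the spread between these libraries.

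Type I interferons are cytokines of antiviral defence that signal through the receptor chains Ifnar1 and Ifnar2 and the kinases Jak1 and Tyk2. Stat2 is phosphorylated there and acts with Irf9 in ISGF3, a complex that binds interferon-stimulated response elements (ISREs) near the start of many antiviral genes. In the brain, microglia, vascular cells, astrocytes and neurons can all respond, and a low tonic level of signalling keeps some of these genes expressed without infection. Ifih1, also named MDA5, senses long double-stranded RNA in the cytosol and acts upstream of interferon. Ifitm2 and Ifitm3 are small membrane proteins that restrict virus entry, Bst2, or tetherin, holds budding virions at the cell surface, and Trim30a dampens Toll-like receptor signalling.

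The promoters are shown first because they carry the motif that gives the group its name. RefSeq promoter windows on GRCm38.p6, each with 250 bases before and 50 after an annotated start, were found for 7 of the 7 genes. Both strands were searched for the ISRE core, which is GAAA, any 2 bases and GAAA again. At least 1 match was present in 6 of the 7 genes, all but Irf9, whose 2 windows held none. Across all genes with a window, 3.99% held a match, as did 42 of the 105 genes of the wider interferon list with a window. The longer form, the core followed by CT, was present in Ifitm3, Bst2 and Trim30a. It was found in 0.303% of all genes and in 16 of the 105 genes of the wider list. A match of letters is a description of the window and does not show that ISGF3 binds there. In the stretches below the core matches are in capitals, each stretch reads 5′ to 3′ along the gene's strand, and a match on the opposite strand appears as its reverse complement.
Ifitm3: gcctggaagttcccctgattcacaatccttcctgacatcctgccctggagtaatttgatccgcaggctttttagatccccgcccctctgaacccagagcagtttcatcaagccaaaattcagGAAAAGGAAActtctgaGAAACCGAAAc
Ifitm2: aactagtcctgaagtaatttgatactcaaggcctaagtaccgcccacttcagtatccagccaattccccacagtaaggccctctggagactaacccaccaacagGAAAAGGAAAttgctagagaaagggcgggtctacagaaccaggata
Bst2: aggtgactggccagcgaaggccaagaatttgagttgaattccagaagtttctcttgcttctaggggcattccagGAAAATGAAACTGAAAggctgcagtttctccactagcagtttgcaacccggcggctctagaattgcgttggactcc
Stat2: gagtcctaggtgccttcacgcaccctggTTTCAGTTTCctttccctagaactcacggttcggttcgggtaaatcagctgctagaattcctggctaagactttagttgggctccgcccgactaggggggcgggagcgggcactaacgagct
Trim30a: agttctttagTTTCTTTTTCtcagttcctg
Ifih1: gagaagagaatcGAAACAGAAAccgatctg
The Ifitm3 stretch lies at chr7:141010715-141010864 on the minus strand, with matches 3 to 12 and 20 to 29 bases past the start. The Ifitm2 stretch is chr7:140955962-140956111, minus strand, with 1 match 46 to 37 bases before the start. It shares the letters GAAAAGGAAA with Ifitm3. Bst2 is shown at chr8:71537527-71537676, minus strand, where 2 matches overlap by 4 bases. Stat2 is shown at chr10:128270248-128270397, plus strand, with its match on the opposite strand. The 30 bases of Trim30a are chr7:104465210-104465239 and those of Ifih1 chr2:62646206-62646235, both minus strand. Trim30a has 2 RefSeq windows, and each holds the match TTTCTTTTTC.

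All 7 genes were expressed at a low level. Counts per library ranged from 3 for Bst2 to 318 for Stat2, of 24752362 to 41073906 total counts. Levels are given below as CPM, counts scaled to the TMM-adjusted library size, and every fold is Visudyne over vehicle. Per unit of exon length, in TPM, the vehicle order was Ifitm3 at 3.59 ± 1 TPM, Ifitm2 at 3.07 ± 0.584 TPM, Stat2 at 2.92 ± 0.328 TPM, Irf9 at 1.93 ± 0.227 TPM, Ifih1 at 1.77 ± 0.354 TPM, Trim30a at 1.74 ± 0.353 TPM and Bst2 at 1.09 ± 0.399 TPM (SD, n = 5). The ranges of neighbours in this order overlapped except between Stat2 and Irf9 and between Trim30a and Bst2. With the longest transcript as the length, Stat2 was highest at a mean of 3.1 TPM over the 10 libraries and Bst2 lowest at 0.893 TPM.

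Ifitm3 and Ifitm2 were lower in Visudyne, Stat2 and Bst2 had lower means with overlapping groups, Irf9 and Ifih1 had nearly equal means, and Trim30a had a higher mean in Visudyne. By the edgeR quasi-likelihood test on all 15938 genes that passed the filter on low counts, with Benjamini-Hochberg adjustment and a threshold of 0.05, 2 of the 7 were called lower and 0 higher. All 7 passed that filter. Of all tested genes 11.5% were called lower and 8.98% higher, so a count of 2 among 7 is read against a background of 3261 called genes, and no test over the 7 was made. DESeq2 and limma-voom also called Ifitm2 and Ifitm3 and no other member. At an unadjusted p under 0.05 by edgeR there were 3, Trim30a being the other. Of all 15938 tested genes 2954 were higher and 3395 lower at that threshold, so 3 of 7 is near the share of all genes. The median log2 fold change of the 7 was -0.27, against -0.076 for the 94 tested genes of the wider list and 0.01 for all tested genes.

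**Figure D1:**
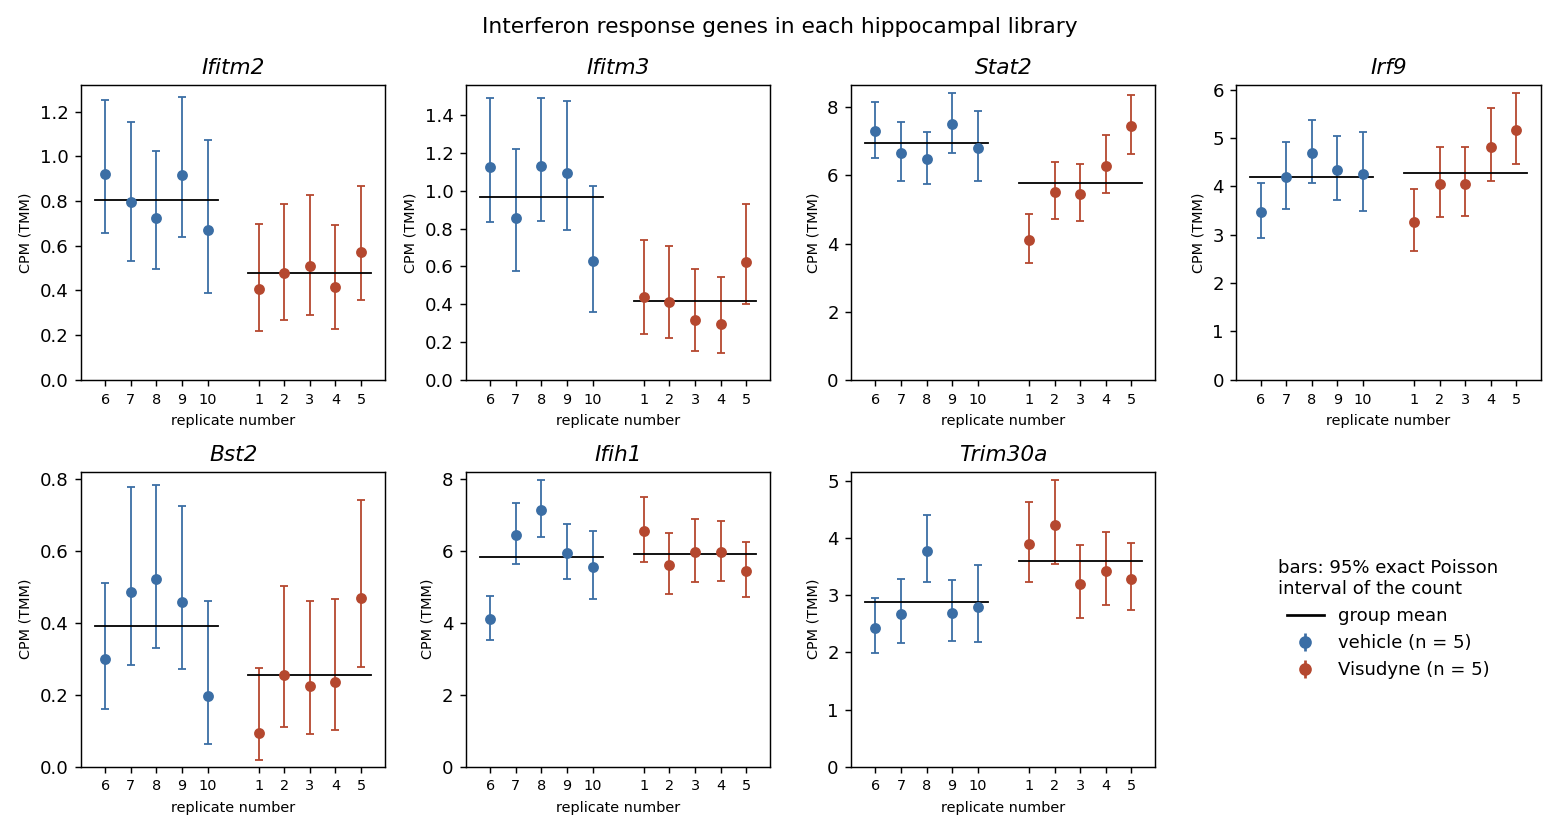
CPM of each of the 7 genes (y axis) in each library (x axis, replicate numbers of the labels), vehicle in blue and Visudyne in red, with the 95% exact Poisson interval of the count as a bar and the group mean as a black line. The groups do not overlap for Ifitm2 and Ifitm3, although Visudyne 5 and vehicle 10 nearly touch for Ifitm3, at 0.626 and 0.63 CPM. The share of all tested genes without overlap was not counted.

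Ifitm3 (ENSMUSG00000025492, GRCm38 chromosome 7, 141009586 to 141010770, minus strand), the family member best known for blocking influenza and other enveloped viruses in endosomes, showed the largest difference of the 7. It was at 0.439, 0.413, 0.319, 0.295 and 0.626 CPM in Visudyne 1 to 5. In vehicle 6 to 10 it was at 1.13, 0.855, 1.13, 1.09 and 0.63 CPM. The groups did not overlap, but only narrowly, between Visudyne 5, the highest of its group, and vehicle 10, the lowest, whose counts were 24 and 16. On the TPM scale these groups did overlap, at up to 2.23 TPM in Visudyne and from 2.11 TPM in vehicle. The fold was 0.433 (log2 fold change -1.21, SE 0.25, 95% interval -1.76 to -0.66, edgeR adjusted p = 0.0234), with Visudyne at 0.419 ± 0.131 and vehicle at 0.967 ± 0.221 CPM (SD, n = 5 each). It was not called without Visudyne 3 (edgeR adjusted p = 0.0639), vehicle 6 (0.0707) or vehicle 9 (0.0502), although the log2 fold change stayed between -1.41 and -1.1 over the 10 fits that left out 1 library. Those 3 fits called 27, 10 and 309 genes of the whole table, against 3261 with all libraries.

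Ifitm2 (ENSMUSG00000060591, chromosome 7, 140954837 to 140955987, minus strand), its close relative in the same gene cluster, moved with it. It stood at 0.408, 0.477, 0.511, 0.413 and 0.573 CPM in Visudyne 1 to 5, and at 0.919, 0.798, 0.724, 0.915 and 0.669 CPM in vehicle 6 to 10. Every Visudyne library was below every vehicle library. How many of all tested genes separated the groups in this way was not counted, for Ifitm3 and Ifitm2 alike. The fold was 0.592 (log2 fold change -0.76, SE 0.19, edgeR adjusted p = 0.0285). The call was lost without Visudyne 1 (edgeR adjusted p = 0.0599), Visudyne 3 (0.0677), Visudyne 4 (0.0556), vehicle 6 (0.0774) or vehicle 9 (0.064). Over the 10 libraries the log2 CPM of Ifitm2 and Ifitm3 had a Pearson r of 0.92, and one of 0.63 after each group's mean was removed.

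Both genes are short, with 655 and 678 bases of exon, and resemble other genes. Of the 31-base words of the Ifitm2 transcript 55.5% also occur in transcripts of other genes, chiefly Gm45717, a gene model that overlaps Ifitm2 on the same strand, while for Ifitm3 the share was 20.5%. How the authors' estimates divided such reads cannot be seen from the table. When the counts of both were summed to 1 gene, its log2 fold change was -0.99 (edgeR adjusted p = 0.022). Counting error is large here: the Poisson coefficient of variation was 25% for Ifitm2 and 26.5% for Ifitm3 in Visudyne, against 14.6% and 31.2% observed between the libraries.

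Bst2 (ENSMUSG00000046718, chromosome 8, 71534255 to 71537456, minus strand) was the least abundant of the 7. Its counts in Visudyne 1 to 5 were 3, 8, 7, 8 and 18, or 0.0941, 0.254, 0.223, 0.236 and 0.469 CPM. In vehicle 6 to 10 they were 13, 17, 23, 18 and 5, or 0.299, 0.484, 0.521, 0.458 and 0.197 CPM. Visudyne 5 lay among the vehicle libraries and vehicle 10 among the Visudyne libraries. The fold was 0.655 with a 95% interval from 0.37 to 1.16 (edgeR adjusted p = 0.245), an interval that holds both a large decrease and no difference. DESeq2 gave no adjusted p for this gene. No 31-base word of Bst2 was found in another gene.

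Neither of the 2 ISGF3 factors among the members was called, and the difference between them was not tested. Stat2 (ENSMUSG00000040033, chromosome 10, 128270559 to 128292849, plus strand), the subunit that carries the transactivation domain, was at 4.11, 5.5, 5.46, 6.29 and 7.45 CPM in Visudyne 1 to 5 and at 7.3, 6.67, 6.47, 7.5 and 6.81 CPM in vehicle 6 to 10. Of the Visudyne libraries 4 were below every vehicle library, and Visudyne 5 was above 4 of the 5. The fold was 0.83 (log2 fold change -0.27, SE 0.14, edgeR adjusted p = 0.159). Without Visudyne 5 it was called, at a log2 fold change of -0.39 (edgeR adjusted p = 0.033). The observed coefficient of variation was 21.3% in Visudyne and 6.25% in vehicle, where counting error alone gave 7.16% and 6.19%.

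Irf9 (ENSMUSG00000002325, chromosome 14, 55603571 to 55610030, plus strand), the DNA-binding subunit, ran from 3.26 CPM in Visudyne 1 through 4.04, 4.05 and 4.81 CPM in Visudyne 2 to 4 up to 5.16 CPM in Visudyne 5. In vehicle 6 to 10 it was at 3.47, 4.19, 4.68, 4.35 and 4.25 CPM. The vehicle values all lay inside the Visudyne range, and the fold was 1.02 with a 95% interval from 0.831 to 1.25 (edgeR adjusted p = 0.893). Across libraries Irf9 tracked Stat2 (r = 0.57, and 0.73 with group means removed) and Bst2 (0.63 and 0.75). Irf9 overlaps Rnf31 by 123 bases on the same strand, and 4.82% of its 31-base words occur in other genes, Rnf31 first among them.

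The RNA sensor Ifih1 (ENSMUSG00000026896, chromosome 2, 62595798 to 62646255, minus strand) was at 6.56, 5.6, 5.97, 5.97 and 5.45 CPM in Visudyne 1 to 5. In vehicle 6 to 10 it was at 4.11, 6.44, 7.15, 5.95 and 5.55 CPM, so the vehicle group held both the lowest and the highest library. The fold was 1.01 with a 95% interval from 0.825 to 1.24 (edgeR adjusted p = 0.943). The spread was 7.26% of the mean in Visudyne, close to the counting error of 7.13%, and 19.5% in vehicle.

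Trim30a (ENSMUSG00000030921, chromosome 7, 104409025 to 104465193, minus strand) was the only member with a higher mean in Visudyne whose libraries all lay above the vehicle mean, at 3.89, 4.23, 3.19, 3.43 and 3.28 CPM. Vehicle 6, 7, 9 and 10 were at 2.43, 2.68, 2.69 and 2.79 CPM, and vehicle 8 at 3.78 CPM lay among the Visudyne libraries. The fold was 1.25 (log2 fold change 0.32, SE 0.14, edgeR adjusted p = 0.114). Without vehicle 8 it was called, at a log2 fold change of 0.44 (edgeR adjusted p = 0.0477). Of its 31-base words 11.9% are shared, mostly with Trim30d, a neighbouring paralog, whose reads could be confused with its own.

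**Figure D2:**
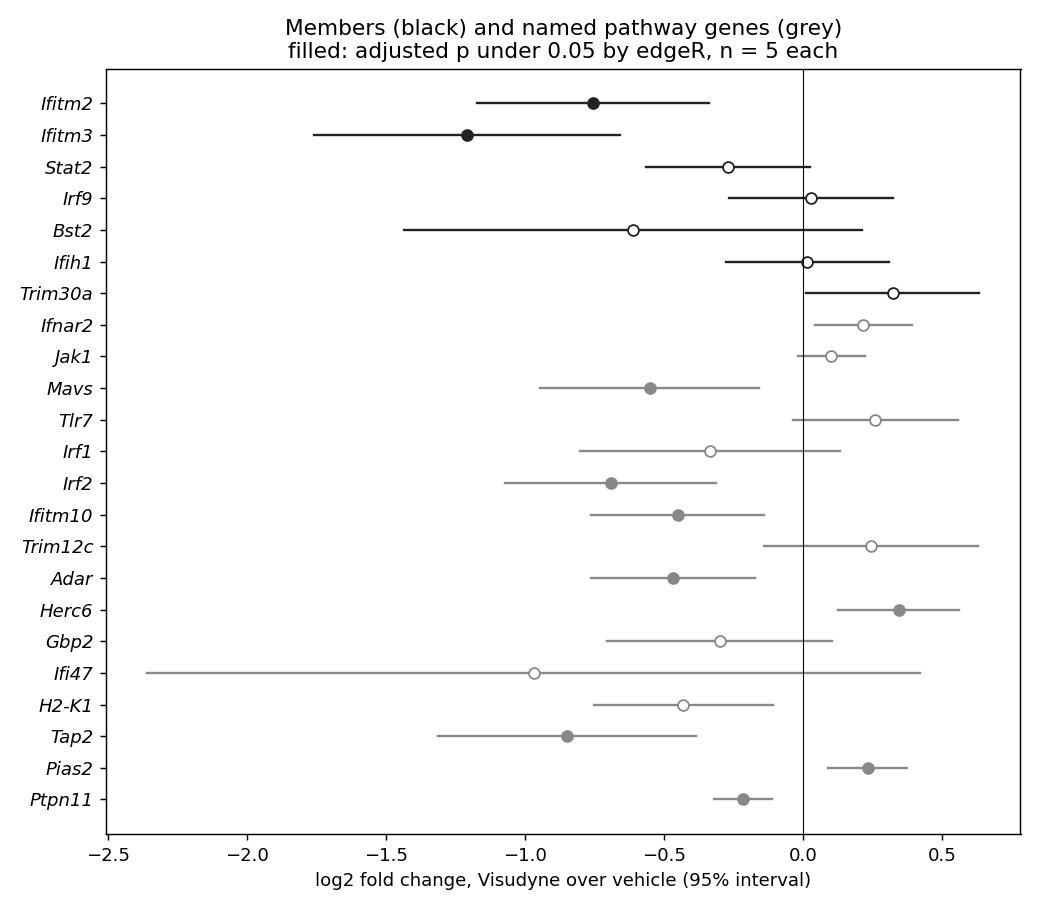
Log2 fold change, Visudyne over vehicle, with its 95% interval (x axis) for the 7 genes in black and the other named interferon pathway genes in grey. Filled points are called at an adjusted p under 0.05 by edgeR, and of the black points only Ifitm2 and Ifitm3, at -0.76 and -1.21, are filled.

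Each library's GC content trend moved with these differences, and its values stand beside them. In each library the log2 CPM of all tested genes, centred on the gene's mean, was regressed on transcript GC content. The slope, per 10 percentage points of GC, was -0.51 to 0.011 in Visudyne and -0.017 to 0.39 in vehicle, with Visudyne 5 and vehicle 10 as the overlapping libraries. The GC contents of Ifitm2, Ifitm3, Bst2, Stat2 and Irf9 lie between 50.4% and 55.3%, and those of Ifih1 and Trim30a are 42.8% and 40.8%. Of the 7, the 4 genes with a log2 fold change below 0 were all in the GC-richer set, and Trim30a, with the highest log2 fold change, is the poorest in GC. Over the 10 libraries, which differ in depth, the log2 CPM of Ifitm2 had a Pearson r of 0.91 with the slope, Stat2 one of 0.89, Ifitm3 one of 0.81 and Bst2 one of 0.81. It was 0.30 for Irf9, -0.32 for Ifih1 and -0.66 for Trim30a. With group means removed r was 0.79 for Ifitm2, 0.85 for Stat2, 0.46 for Ifitm3, 0.78 for Bst2, 0.52 for Irf9, -0.39 for Ifih1 and -0.31 for Trim30a. Over the 94 tested pathway genes, which share the same libraries, fold change and GC content had an r of -0.50.

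With each library's GC trend removed Ifitm3 was still called, at a log2 fold change of -1.06 (SE 0.24, edgeR adjusted p = 0.0406). Ifitm2 was then at -0.48 (0.119) and not called, Bst2 at -0.32, Stat2 at -0.12 and Trim30a at 0.071, none of them called. The trend removal lowered the calls over all genes from 3261 to 465. When the slope itself entered the model, edgeR called 0 of all 15938 genes, so its 0 calls among the members are no result about them, and 0 members had an unadjusted p under 0.05. Ifitm3 was then at -0.77 and Ifitm2 at -0.38, and Bst2 and Stat2 were at 0.38 and 0.14, above 0. With 1 surrogate variable as a covariate Ifitm3 was at -0.99 (edgeR adjusted p = 0.176) and Ifitm2 at -0.53 (0.283), in a fit that called 1 gene of the whole table. Group and slope are partly confounded, since all but 1 library of each group lie on their own side.

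**Figure D3:**
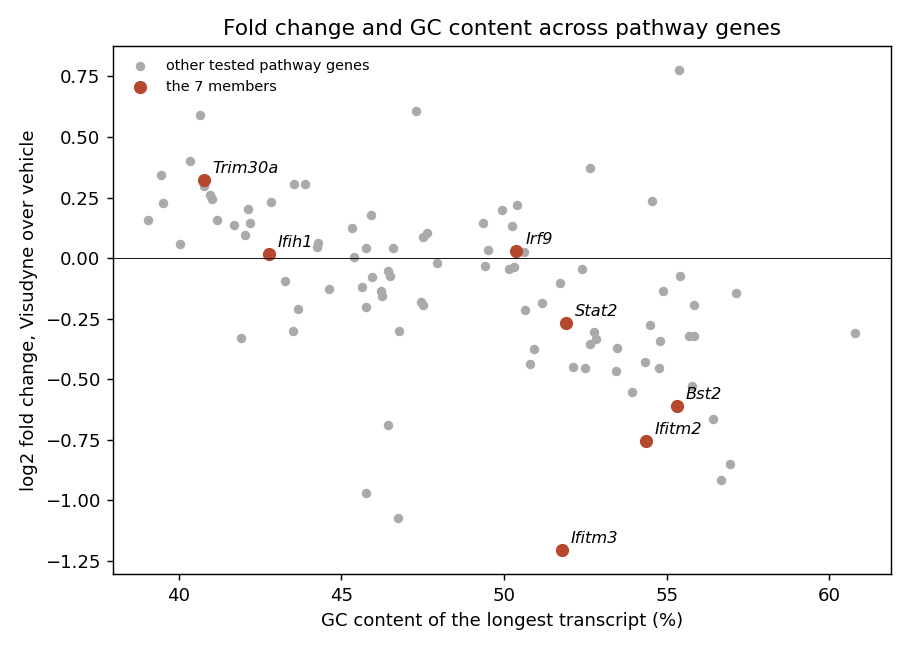
Log2 fold change, Visudyne over vehicle (y axis), against the GC content of the longest transcript (x axis) for the 7 genes in red and the other tested pathway genes in grey, 94 in all. Fold changes decline with GC content (r = -0.50), and Ifitm3, at 51.8% GC, has the lowest of the 94.

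**Figure D4:**
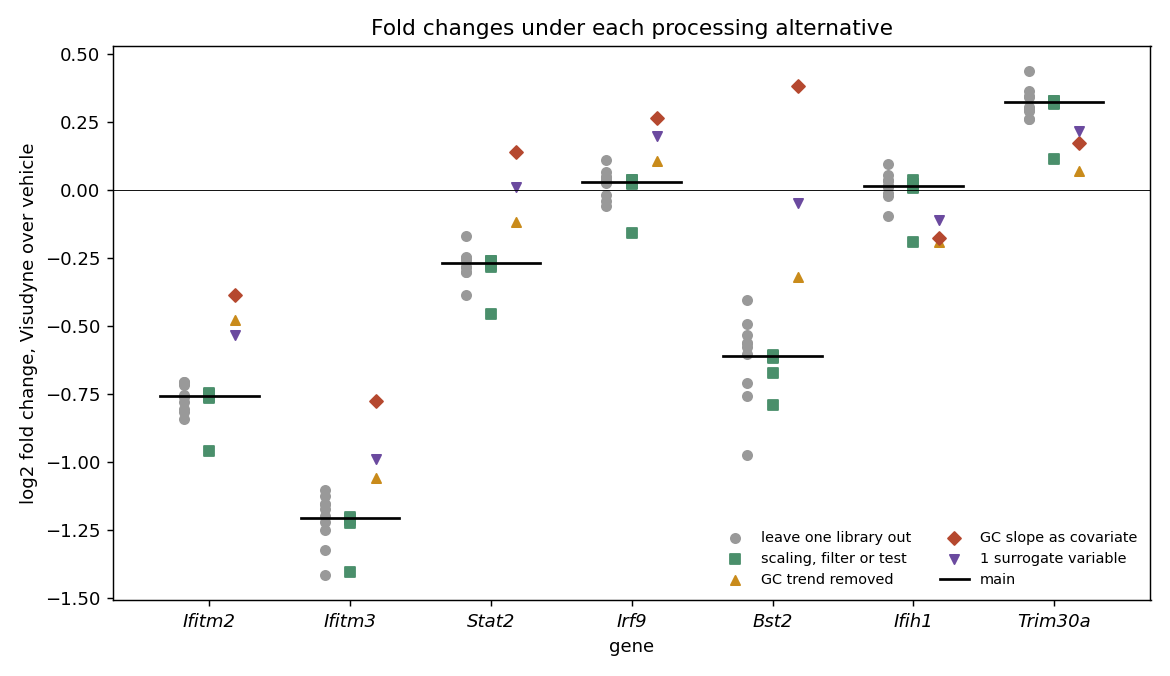
Log2 fold change of each of the 7 genes (y axis) in the reported fit (black line) and under each processing alternative (points, by kind). Where tested, Ifitm2 lies between -0.38 and -0.96 and Ifitm3 between -0.77 and -1.41. Stat2 and Bst2 lie above 0 when the GC slope is in the model, and Stat2 also with 1 surrogate variable.

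The rest of the pathway was read from a list of 133 genes, of which 119 had a row and 94 were tested. Of these 8 were called lower and 2 higher, or 6 and 2 of 87 when the members are left aside, against 11.5% and 8.98% of all tested genes. Of 11 interferon genes only Ifna13 and Ifnk had a row, at no more than 1 and 5 counts in a library, and neither was tested. The receptor chains were expressed in every library. Ifnar1, at 24.7 to 26.5 CPM, was not called, and Ifnar2 averaged 8.19 CPM in vehicle against 9.51 CPM after Visudyne, where all 5 libraries were above every vehicle library (log2 fold change 0.22, edgeR adjusted p = 0.0675). Jak1 had a log2 fold change of 0.10 (0.184). For Ifnar2, and for Herc6 and Tap2 below, the share of all tested genes whose groups separated so was not counted.

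Among the sensors and adaptors 1 of 10 was called, Mavs, the mitochondrial adaptor through which Ifih1 signals, which fell to 1.5 CPM from a vehicle mean of 2.2 CPM (log2 fold change -0.55, SE 0.18, edgeR adjusted p = 0.0498). With the GC trend removed Mavs was at -0.30 (0.333), and its call was also lost with RLE size factors (0.0509) and with no filter on low counts (0.0743). Tlr7, an endosomal receptor of single-stranded RNA, was at 0.26 (0.173). Of 8 interferon regulatory factors and their kinases Irf2, an antagonist of Irf1, fell to 2.79 CPM from 4.51 CPM in vehicle (log2 fold change -0.69, SE 0.18, edgeR adjusted p = 0.0282). It was also called with the GC trend removed, at -0.77. Irf1 itself was at -0.34 (0.26).

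In the Ifitm family 3 of 4 tested genes were called lower, against 11.5% of all tested genes. They were the members Ifitm2 and Ifitm3, already counted above, and Ifitm10. Ifitm10 fell to 1.97 CPM, with vehicle at 2.7 CPM (log2 fold change -0.45, SE 0.14, edgeR adjusted p = 0.0451), and was not called with the GC trend removed, at -0.27. Ifitm7 is the fourth, and Ifitm1, with 1 to 16 counts a library, was not tested. Of 9 tested Trim genes none was called by edgeR, while 1, Trim30a, had an unadjusted p under 0.05. Trim12c had a log2 fold change of 0.24 (0.32).

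Of 32 tested antiviral effectors 1 was called lower and 1 higher. Adar, which edits double-stranded RNA and so hides it from Ifih1, fell to a mean of 39 CPM where vehicle had 53.9 CPM (log2 fold change -0.47, SE 0.14, edgeR adjusted p = 0.0361). Herc6, the mouse ligase for Isg15, rose from 5.57 to 7.07 CPM, above every vehicle library in all 5 (log2 fold change 0.34, SE 0.1, edgeR adjusted p = 0.0364). The median of the 32 was -0.039, with 14 above 0 and 18 below. Some classical interferon-induced genes that were not called lay on both sides of 0. Ifit1 had a log2 fold change of -0.10, Ifit3 one of -0.19, Isg15 one of -0.31 and Rsad2 one of 0.044. Ifit2 was at 0.094, Eif2ak2 at 0.31 (edgeR adjusted p = 0.0563), Ifi44 at 0.40 and Mx1 at 0.61. These and Ifnar1 were named after their values were seen.

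None of 10 guanylate-binding proteins and immunity GTPases was called, and none had an unadjusted p under 0.05 by edgeR. Gbp2 was at -0.30 and Ifi47 at -0.97 (SE 0.64). In antigen presentation Tap2, a subunit of the peptide transporter, fell from 0.576 to 0.317 CPM, below every vehicle library in all 5 (log2 fold change -0.85, SE 0.21, edgeR adjusted p = 0.028), as 1 call of 8, and H2-K1, a class I heavy chain, was at -0.43 (0.0555). Of 7 tested negative regulators Ptpn11, the phosphatase SHP2, fell with a log2 fold change of -0.22 (SE 0.048, edgeR adjusted p = 0.0246), and Pias2, a SUMO ligase of the STAT inhibitor family, rose with one of 0.23 (SE 0.066, 0.034). Of the 10 pathway genes called, Ifitm3 and Irf2 kept the call after removal of the GC trend, where calls over all genes fell to 465. By edgeR 0 were called without Visudyne 3, without vehicle 6 or without vehicle 9, where calls over all genes fell to 27, 10 and 309. In those fits 15 to 17 of the list had an unadjusted p under 0.05, and the share of all genes at that threshold was not counted. In the reported fit 18 of the 94 tested did, a lower share than the 2954 higher and 3395 lower of all 15938 tested genes. Among the fits that left out 1 library, Mavs, Adar, Herc6 and Pias2 were called only without Visudyne 5 or vehicle 10, and Ifitm10 only without Visudyne 5 or vehicle 8.

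Markers of other cells were read in the same libraries, and in bulk tissue fewer cells of a type cannot be told apart from less RNA per cell. Of 12 hippocampal neuron markers, all detected, 2 were called lower and 1 higher. Slc17a7, the vesicular glutamate transporter of excitatory neurons, fell to a fold of 0.477 (edgeR adjusted p = 0.0274) and Wfs1 to 0.7 (0.0311), while Gad2 rose to 1.2 (0.0485). The astrocyte list had 1 of 10 called in each direction. These marker genes were named after their values were seen, and their part in the members' differences was not tested. The 14 endothelial markers summed to 150.5 to 174.8 CPM in Visudyne and 139.1 to 164.3 CPM in vehicle, with 1 called higher, Slco1a4, and 0 lower. Slco1a4 was also the most abundant of them, at 49 and 34 CPM, the median log2 fold change of the 14 was -0.018, and Cldn5 had a fold of 0.472 (edgeR adjusted p = 0.053). The part of endothelial cells in the members' differences was not tested. The 10 mural cell markers summed to 115.2 to 125.2 and 98.1 to 118.3 CPM, with 4 called lower and 1 higher. The 1 called higher, Rgs5, made up most of that sum, at means of 99.9 and 80.3 CPM. Pdgfrb, Vtn, Acta2 and Tagln were called lower, and the median log2 fold change of the 10 was -0.36. Leptomeningeal fibroblast markers summed to 60.5 to 110.7 CPM in Visudyne and 51.8 to 83.2 CPM in vehicle, with 1 of 10 called in each direction. Dcn, called higher, made up most of that sum, at means of 58.7 and 33.2 CPM. Slc6a13 was called lower, at a fold of 0.361, and the median log2 fold change of the list was -0.36. The 10 oligodendrocyte markers summed to 2281 to 2736 and 2343 to 3174 CPM, with 5 called lower. Whether the mural or oligodendrocyte markers have a part in the members' differences was not tested.

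Visudyne 5 was the highest Visudyne library for Ifitm2, Ifitm3, Stat2, Irf9 and Bst2. It was also the library with the highest sum of 16 microglial markers, 364.1 CPM against 280.2 to 306.5 CPM in the other Visudyne libraries and 256.8 to 288.3 CPM in vehicle, and of 10 blood leukocyte markers, 6.33 CPM against at most 3.94 CPM elsewhere. Of that sum 1.43 CPM were S100a8 and 1.46 CPM S100a9, both neutrophil genes. All 16 listed microglial markers had a row in the deposited table, and 10 of the 12 listed blood leukocyte markers did. Choroid plexus markers summed to 971.7 CPM in Visudyne 5 and 1553 CPM in Visudyne 3, against 194.5 to 251.2 CPM in vehicle. The lowest Visudyne sum was 200.6 CPM. Enpp2 made up most of these sums, at a mean of 198.7 CPM in vehicle and up to 1053 CPM in Visudyne. Ttr was at most 8.03 CPM in vehicle and reached 304 CPM in Visudyne. Of 10 tested markers 3 were called higher and 0 lower. Ifitm3 was lowest in Visudyne 3 and 4, and Visudyne 3 had the highest choroid plexus sum. The part of these cells in the members' levels was not tested. Without Visudyne 5 the log2 fold changes were -1.41 for Ifitm3, -0.84 for Ifitm2 and -0.97 for Bst2, the last not called (edgeR adjusted p = 0.069).

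The genes whose log2 CPM followed each member most closely over the 10 libraries were sought among those with a mean of at least 1 CPM. For Ifitm3 they were Plekhb1 (r = 0.98), Thbs4 (0.96) and Smim20 (0.96), and for Ifitm2 Jdp2 (0.98), Txlna (0.98) and Pcif1 (0.97). All 6 of these were called lower in Visudyne, against 11.5% of all tested genes. They were picked for following 2 called genes, so these calls are no separate result. With group means removed r was 0.93 for Plekhb1, 0.86 for Thbs4 and 0.91 for Smim20. It was 0.89 for Jdp2, 0.95 for Txlna and 0.89 for Pcif1. Stat2 was followed by Tcea2 (0.99), Tmem138 (0.98) and Nop16 (0.98), and Bst2 by Slc20a1 (0.96), Ndrg2 (0.96) and Lzts1 (0.95). For Irf9 they were Pnpla3 (0.94), Cd68 (0.89) and Acer2 (0.86), for Ifih1 Hlf (0.94), Ankrd34c (0.91) and Lrrk2 (0.91), and for Trim30a Klhl1 (0.97), Xpo7 (0.95) and Mterf2 (0.91). The mean of the 7 was followed by Ndrg2 (0.97), Hepacam (0.96), Nxph3 (0.96), Shisa5 (0.96) and Phlda3 (0.95). Of these only Shisa5 was on the pathway list. The points are 10 libraries in 2 groups, and the genes named are the highest of 11682 candidates.

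The 7 genes did not vary as a unit. Ifih1 and Trim30a rose and fell together over libraries (r = 0.52, and 0.61 with group means removed). Trim30a ran opposite to Ifitm2 (r = -0.76) and to Stat2 (-0.66), and after removal of the group means these were -0.51 and -0.45. Irf9 had r = 0.012 with Ifitm2 and -0.0021 with Ifitm3.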

How the data were processed

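Hippocampal RNA of 10 samples was sequenced. Per the labels' protocols, the library kit kept strand and took total RNA as input. Estimated counts per gene were deposited by the authors in a single table, and FastQC, Salmon and build mm10 are named per the submitters' processing notes. Versions, annotation and filters were not stated there. Salmon's estimates need not be whole, so rounding by the authors was assumed. The table was used as deposited. Symbols, exon lengths and GC content came from GENCODE M21 on GRCm38, which is mm10, and 27053 of 27343 identifiers matched.

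The 2 groups were tested in R 4.3.3 by the edgeR 4.0.16 quasi-likelihood test (filterByExpr, TMM, two-sided, n = 5 each). The standard error is the log2 fold change divided by the square root of F. Intervals on counts cover counting error alone. Correlations used log2 CPM with a prior count of 2. Alternatives used limma 3.58.1, DESeq2 1.42.0, sva 3.50.0, other size factors and filters, GC corrections (loess span 0.3) and omission of each library. The test was checked on simulated counts.

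The members and lists were chosen with earlier results of these data known. Named genes are the members, all called pathway genes, the 2 of smallest p in each pathway group with fewer calls, and the 3 genes (5 for the mean) best correlated with each member; 1 result under this rule is not reported here. Replicate numbers are not shared between groups.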

Additional observations from a re-analysis of the deposited data

Results flagged for a closer look

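Trim30a in vehicle 8, at 3.78 CPM, stood apart from the other 4 vehicle libraries, which lay between 2.43 and 2.79 CPM. The gap to the nearest of them was 0.733 of the group's whole range, above Dixon's 95% critical value of 0.71 for 5 samples. It was the only case among 16 groups checked, the 7 genes and their mean in each treatment, and chance flags about 1 group in 20.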

How the results depend on the processing

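No paired analysis was possible because the replicate numbers of the Visudyne and vehicle groups do not overlap. The count of members called lower, 2 in the reported fit, was 1 with the GC trend removed, 1 with the GC trend removed and without Visudyne 5 (a setting chosen after seeing the data), 1 with Ifitm2 and Ifitm3 summed, 0 with at least 1 CPM required in 5 libraries, where Ifitm2, Ifitm3 and Bst2 were not tested, and 0 with the GC slope or 1 surrogate variable as a covariate, fits that called 0 and 1 genes of the whole table. Leaving out 1 library each gave 0 to 3 members called lower and 0 to 1 called higher. Pathway genes called lower, 8 in the reported fit, were 2 with the GC trend removed, 3 with this and without Visudyne 5, 0 with the GC slope and 0 with the surrogate variable, and 0 to 12 without 1 library each. Those called higher, 2 in the reported fit, were 0 with the GC trend removed, with or without Visudyne 5, with the GC slope, with the surrogate variable, with no filter on low counts and with total counts alone, and 0 to 3 without 1 library each. By edgeR 3 pathway genes had an unadjusted p under 0.05 with the GC slope and 9 with the surrogate variable, against 18 in the reported fit. The share of all genes at that threshold was not counted in the fits with a covariate. The members' median log2 fold change was -0.047 with the surrogate variable, 0.14 with the GC slope, 0.019 with the 1 CPM filter, where fewer members were tested, and -0.46 with total counts alone, and -0.39 to -0.17 without 1 library each. Total counts moved the median of all tested genes from 0.01 to -0.19, and Ifih1 and Irf9 then fell below 0, to -0.19 and -0.16, without a call. Adar, called lower, had a log2 fold change of 0.0605 with the GC slope. The cause of these changes was not tested. Depth limits Bst2 most, at 3 to 23 counts a library.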

Other observations

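Vehicle 8 was the highest of the 10 libraries in 23 of the 94 tested interferon pathway genes, or 24.5%, against 6.64% of all 15938 tested genes. Visudyne 5 was highest in 16 of the 94, or 17%, against 6.78% of all tested genes. Among the 7 members vehicle 8 was highest for Ifitm3, Bst2 and Ifih1. Of the classical interferon-induced genes, named here after their values were seen, Ifit1, Ifit3, Ifit3b, Usp18 and Rsad2 were highest in vehicle 8. Ifit2, Isg15 and Irf7 were not, with Irf7 at 0.339 CPM there against 0.197 to 0.508 CPM in the other libraries. Ifit3, which stabilises Ifit1 on foreign RNA, was at 8.94 CPM, against 2.84 to 6.74 CPM in the other 9. Ifit1 was at 4.87 CPM against 1.6 to 3.75 CPM, and Usp18, the protease that removes Isg15 and dampens the receptor, at 1.24 CPM against 0.254 to 0.668 CPM. Rsad2, which encodes viperin, was at 1.95 CPM against 0.758 to 1.47 CPM. Isg15, at 0.317 CPM, was not raised in this library, where the others ranged from 0.127 to 0.782 CPM. Vehicle 8 also had the largest total count. Without it Ifitm2 and Ifitm3 were called lower, as with it, and Trim30a was called higher.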
